A study of Mus musculus with 11 samples.

Results

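The Notch receptors Notch1, Notch2, Notch3 and Notch4, the ligands Jag1, Jag2 and Dll1, and the target genes Hes1, Hey1 and Heyl were followed in cell lines of interstitial cell of Cajal (ICC) progenitors and in the stomach muscle they came from. Members were all probe sets that carry 1 of these 10 gene symbols, alone, in the platform's annotation, whatever their values. These 10 of the 18193 genes named on the array had 20 of the 45037 probe sets that are not controls. A probe set is a group of short DNA probes that together read 1 transcript. A probe set was tested when it exceeded the array's median on at least 2 of the 11 arrays, which held for 15 members and for 26923 probe sets in all.

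In Notch signalling a membrane receptor is bound by a ligand of the Jagged or Delta family on a neighbouring cell, is cut by Adam proteases and gamma-secretase, and releases an intracellular domain that joins the DNA-binding protein Rbpj in the nucleus. The Hes and Hey families, transcriptional repressors of the basic helix-loop-helix class, are among its best known targets. The pathway maintains progenitor pools in many tissues, and in muscle walls it is best known from blood vessels, where endothelium and the mural cells around it (pericytes and vascular smooth muscle) use it.

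The samples were 4 groups of mouse RNA, 1 array each. The tsA58 line (2xSCS70, 3 arrays) was derived from H-2Kb-tsA58 mice, whose transgene places a temperature-sensitive SV40 large T antigen behind the interferon-responsive H-2Kb promoter. Its cells were kept at 39.5 °C in neural stem cell medium, with no interferon-gamma added. The stomach muscle layers of H-2Kb-tsA58 mice (tsA58 muscle) gave 3 arrays. The C57BL/6J line (2xSCS2F10, 3 arrays) derives from wild-type animals, and its cells were kept at 37 °C in that base medium plus 5% chick embryo extract. C57BL/6J stomach muscle gave 2. Each line is 1 clone, so strain, clone, transgene and culture conditions cannot be told apart between the lines. Technical values of the arrays, given below, also differed between the strains and between line and muscle. The titles call the arrays biological replicates, but nothing states that they came from separate cultures or animals, so p-values measure the spread between these samples, which may be technical. Values are log2 intensities, not comparable between probe sets. The arrays' medians lay between 4.66 and 4.84, and a value at or below them cannot be told from background.

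Kit, the receptor that marks ICC, averaged 3.51 ± 0.32 (SD, n = 3) in the tsA58 line and 7.87 ± 0.66 (n = 3) in tsA58 muscle. In the C57BL/6J line it averaged 3.60 ± 0.26 (n = 3), against 7.15 ± 0.45 (n = 2) in C57BL/6J muscle. Kit, the defining marker of mature ICC, thus lay below the array median in both lines. The muscle also held other tissue: markers of the exocrine pancreas averaged 5.17, 10.9 and 6.03 over the tsA58 muscle arrays and 11.8 and 7.06 over the C57BL/6J muscle arrays. In bulk RNA, fewer cells of a type and less RNA per cell cannot be told apart.

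Jag1 and Notch1 separated the lines most among the members. By their brighter probe sets the tsA58 line had more of both than the C57BL/6J line did, and both were lower in the C57BL/6J line than in its muscle. By 1 probe set each (1426431_at and 1419302_at), which was not the gene's brightest, Jag2 was higher and Heyl lower in either line than in its muscle. Not every probe set of these genes did so. In the C57BL/6J line against muscle the values were -0.32 for Notch1 1418633_at, -0.18 for Jag1 1421106_at and 0.11 for Jag2 1426430_at, and Heyl 1419303_at was called in neither line. The brightest Heyl probe set, 1438886_at, was at -0.92 in the tsA58 line against muscle (adjusted p = 0.0894), not called. A call required a change of 2-fold or more with an adjusted p below 0.05. In the tsA58 line against its muscle, 3 of the 15 tested member probe sets were called higher and 2 lower, where 30.4% of all tested probe sets were called, 14.6% higher and 15.9% lower. In the C57BL/6J line against its muscle, 1 was called higher and 4 lower, with 34.1% called over all probe sets, 17.8% higher and 16.3% lower. Between the lines, 4 were called higher in the tsA58 line and 0 lower, where 14.2% of all were called, 8.70% higher and 5.52% lower. Between the muscles, 2 were called, both lower in tsA58 muscle, where 15.9% of all were called, 9.82% higher and 6.04% lower. The members' shares of calls were thus of the order of the background in the comparisons with muscle. Groups whose arrays did not overlap were common. In the tsA58 line against muscle, 7 member probe sets separated higher and 3 lower, with 26.8% and 23.6% over all tested. In the C57BL/6J line 1 and 8 did, with 42.6% and 31.9%. Between the lines 7 and 1 did, with 18.9% and 20.6%, and between the muscles 1 and 2, with 34.9% and 20.6%. The comparisons share arrays, and their counts are not independent. With arrays centred on their hybridisation controls, which shifted the change of every probe set by 0.60, 1.23, 1.49 and 2.13 in these 4 comparisons, 3, 1, 12 and 13 members were called. Relative to that shift each change is the one given here.

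**Figure D1:**
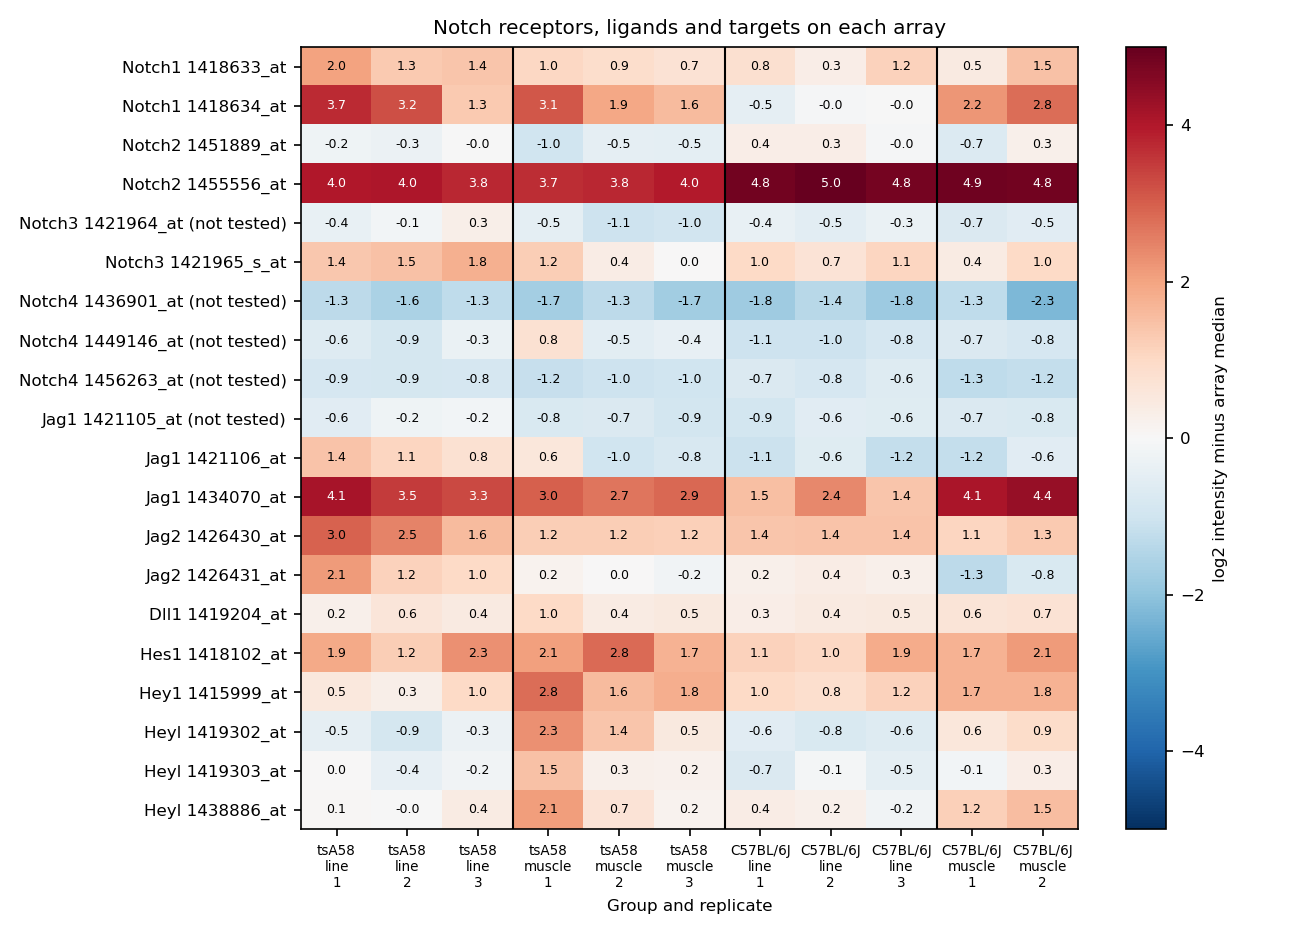
Log2 intensity of each of the 20 member probe sets minus the median of its array (colour and number), with arrays in columns by group and replicate. The Notch1 probe set 1418634_at lies near or below the median on the 3 C57BL/6J line arrays and above it on the other 8 arrays. The Notch4 probe sets lie below it on all arrays except 1 tsA58 muscle array.

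The starts of Notch1 and Jag1 are shown because these members differed most between the lines, and their line-muscle differences are the ones that differed between the strains. Each sequence is the 250 bases before the gene's annotated start, from RefSeq on build GRCm38.p6, read 5′ to 3′ on the gene's own strand, which is the minus strand for both. Capitals mark the motif CACNAG, an N-box that proteins of the Hes family can bind, searched on both strands.
Notch1, chr2:26503823-26504072: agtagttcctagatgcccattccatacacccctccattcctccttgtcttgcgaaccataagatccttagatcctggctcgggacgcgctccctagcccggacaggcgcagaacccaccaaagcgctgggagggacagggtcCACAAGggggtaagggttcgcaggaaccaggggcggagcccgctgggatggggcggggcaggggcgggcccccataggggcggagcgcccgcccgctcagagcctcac
Jag1, chr2:137116521-137116770: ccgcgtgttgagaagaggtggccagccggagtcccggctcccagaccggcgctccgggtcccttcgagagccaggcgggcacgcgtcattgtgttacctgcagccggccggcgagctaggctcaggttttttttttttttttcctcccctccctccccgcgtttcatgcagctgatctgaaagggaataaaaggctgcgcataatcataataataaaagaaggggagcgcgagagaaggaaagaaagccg
The Notch1 window held 1 such motif, which began at position -108 from the start, and the Jag1 window held 0. CACNAG was found in 36.7% of the 32851 promoters of the same table and length. The Rbpj core motif TGGGAA, which 21.6% of all promoters held, and the E-box CACGTG, a site class of Hey proteins held by 6.02%, were found in 0 of the 8 promoter entries of the 7 members listed there (Notch1, Notch2, Notch3, Notch4, Jag1, Jag2 and Dll1). No string of letters matches more than 1 of the 3 motifs.

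Among the receptors, Notch1, a broadly used receptor in progenitors and endothelium, had 2 probe sets. For 1418634_at the tsA58 line arrays gave 8.37, 7.90 and 6.05, and the tsA58 muscle arrays 7.87, 6.70 and 6.31. On the C57BL/6J line arrays it read 4.27, 4.68 and 4.67, against 7.06 and 7.62 in C57BL/6J muscle. The C57BL/6J line stood alone: its 3 arrays lay below those of the other groups and at or under the array median, while the tsA58 line overlapped its muscle. Notch1 by this probe set was higher in the tsA58 line than in the C57BL/6J line by 2.90 ± 0.55 on the log2 scale (SE, adjusted p = 0.00433). Relative to C57BL/6J muscle, the C57BL/6J line fell by 2.79 ± 0.62 (adjusted p = 0.00375). The tsA58 line differed from tsA58 muscle by 0.48 (95% interval -0.74 to 1.70, adjusted p = 0.511). That difference ran from 0.012 without tsA58 line replicate 1 (adjusted p = 0.989) to 1.17 without tsA58 line replicate 3, the lowest array (adjusted p = 0.0358). The line-muscle difference was larger by 3.27 ± 0.83 in the tsA58 strain than in C57BL/6J (adjusted p = 0.0169), and without C57BL/6J muscle replicate 2 that call was lost (2.99, adjusted p = 0.0755). Folds against the C57BL/6J line end at or below the array median and may understate the change, which was not tested.

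Markers of mesothelium, the cell layer that covers the stomach, also differed between the lines. Their mean over 4 genes was 7.75 ± 1.91 in the tsA58 line (SD, n = 3, from 6.32 to 9.92), against 10.4 ± 0.33 in the C57BL/6J line (n = 3). In muscle it was 9.03 ± 0.18 for tsA58 (n = 3) and 8.78 ± 0.06 for C57BL/6J (n = 2). Of the 4 genes, 3 were called lower in the tsA58 line than in the C57BL/6J line (median -2.53), and the median of the difference between the strains' line-muscle differences was -2.92, with 1 gene called. Over all tested probe sets 5.52% were called lower between the lines, and 22.3% were called in either direction for the difference between strains. On tsA58 line replicate 3, where the mesothelium markers were highest in that line, Notch1 by 1418634_at was lowest. By 1418633_at it was lowest on replicate 2 (5.99). The smooth muscle (6.77), mural (5.66) and enteric neuron (3.82) marker means, among others, were also highest on replicate 3, while the exocrine pancreas mean was not. That array stood apart from the other tsA58 line arrays, with a log2 ratio of 3′ to 5′ actin of 0.053 against 0.51 and 0.85. Without it the difference between the lines was 3.60 for Notch1 1418634_at and 1.98 for Jag1 1434070_at, both called. The part of mesothelial cells in the values of Notch1 and Jag1 was not tested.

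The other Notch1 probe set, 1418633_at, did not repeat these calls. Its tsA58 line arrays gave 6.66, 5.99 and 6.10, against 5.53, 5.07 and 5.85 in the C57BL/6J line. The tsA58 line lay above the C57BL/6J line on all arrays, by 0.77 (95% interval 0.11 to 1.42), with an adjusted p of 0.0881. In muscle it gave 5.80, 5.64 and 5.48 for tsA58 and 5.30 and 6.29 for C57BL/6J, so the groups overlapped. For C57BL/6J, line minus muscle was -0.32 (95% interval -1.05 to 0.42, adjusted p = 0.470). The intervals of the C57BL/6J line-muscle value for the 2 probe sets do not meet, and the direction for Notch1 in that line rests on 1418634_at.

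Notch2, a receptor with wide expression, separated the arrays by strain and not by kind of sample. Its bright probe set 1455556_at gave 8.66, 8.71 and 8.48 in the tsA58 line and 8.47, 8.54 and 8.72 in tsA58 muscle. It gave 9.56, 9.72 and 9.46 in the C57BL/6J line and 9.71 and 9.65 in C57BL/6J muscle. All 6 tsA58 arrays lay below all 5 C57BL/6J arrays. In muscle it fell by 1.10 ± 0.18 in tsA58 relative to C57BL/6J (adjusted p = 0.00198), although the sign turned to 1.02 where arrays were centred on their hybridisation controls. Between the lines the value was -0.96 ± 0.16, which passed the adjusted p (0.00198) and missed 2-fold, and without tsA58 line replicate 2 or C57BL/6J line replicate 3 it was -1.01 or -1.02. The line-muscle values were 0.04 (95% interval -0.31 to 0.39) in tsA58 and -0.10 (95% interval -0.49 to 0.29) in C57BL/6J, so both intervals leave out a 2-fold difference. The second probe set, 1451889_at, ranged from 3.78 to 4.68 over the tsA58 arrays and from 4.17 to 5.09 over the C57BL/6J arrays, close to the array median, and it was called in 0 comparisons.

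Notch3, the receptor of vascular smooth muscle and pericytes, was read by 1421965_s_at. The tsA58 line gave 6.02, 6.15 and 6.49, against 6.00, 5.11 and 4.75 in tsA58 muscle. The line arrays all lay above the muscle arrays, by 0.93 ± 0.31 (adjusted p = 0.0289), short of 2-fold. Without tsA58 line replicate 1 or without tsA58 muscle replicate 1 the value was 1.03 or 1.29 and reached the call. Arrays of the C57BL/6J line read 5.73, 5.40 and 5.76, against 5.24 and 5.84 in C57BL/6J muscle, and these overlapped. The 2 line-muscle differences of Notch3 were 0.84 apart (95% interval -0.17 to 1.86, adjusted p = 0.211), or 1.20 and called without tsA58 muscle replicate 1. A second probe set, 1421964_at, was not tested: it exceeded the array median on 1 tsA58 line array only, at 5.02. Notch4, a receptor found mainly in endothelium, had 3 probe sets, of which 0 were tested. Its 1449146_at gave 5.55 on tsA58 muscle replicate 1 and between 3.68 and 4.38 on the other 10 arrays.

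**Figure D2:**
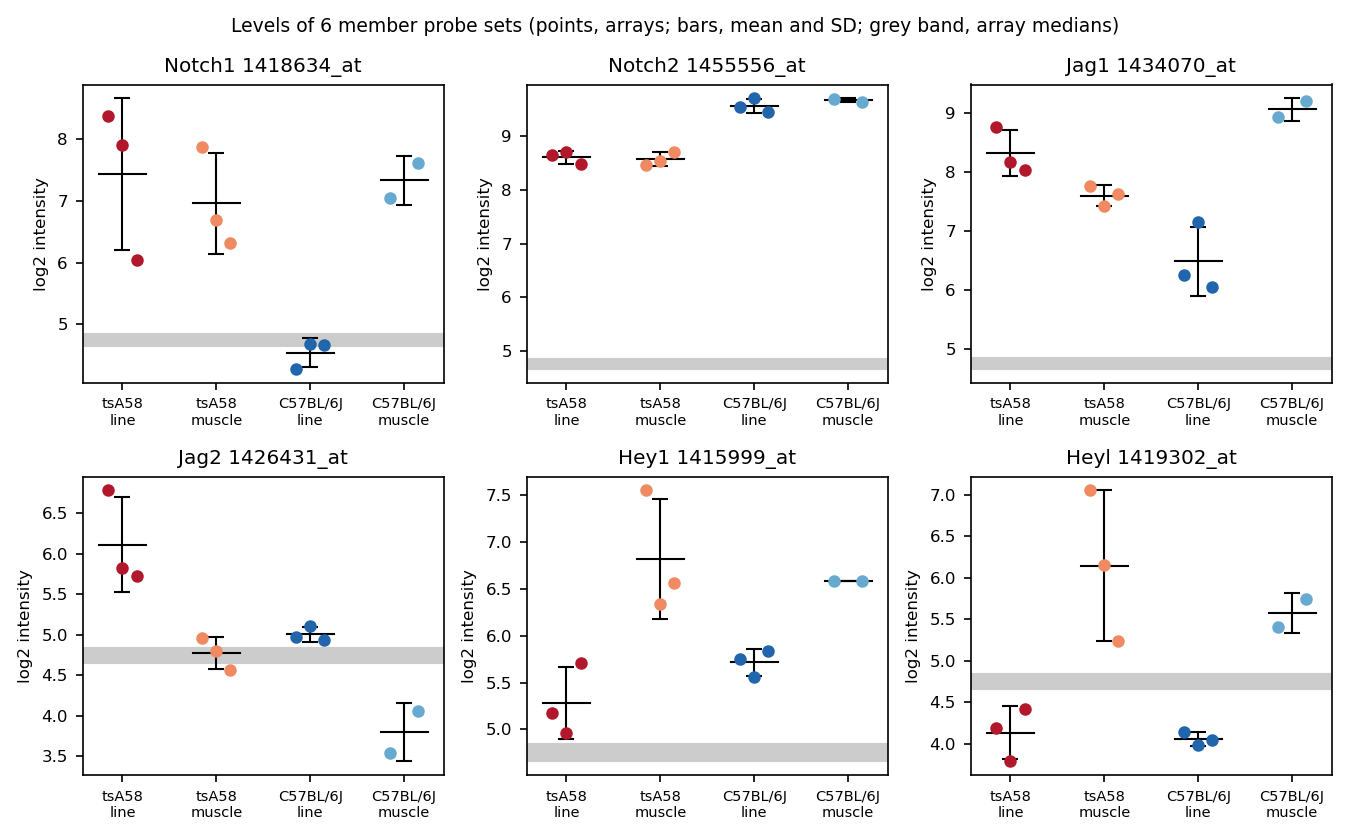
Log2 intensity of 6 member probe sets on each array (points), with group mean and SD (bars), for the 4 groups along the horizontal axis. The grey band spans the array medians, 4.66 to 4.84. Notch1 and Jag1 are lowest in the C57BL/6J line, Notch2 is lower in both tsA58 groups than in both C57BL/6J groups, and Heyl lies below the band in both lines.

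Among the ligands, Jag1, a Jagged ligand prominent in endothelium and vascular smooth muscle, gave the most distinct pattern with 1434070_at. Its values were 8.76, 8.16 and 8.03 in the tsA58 line and 7.76, 7.42 and 7.62 in tsA58 muscle. They were 6.25, 7.15 and 6.05 in the C57BL/6J line, against 8.93 and 9.20 in C57BL/6J muscle. The 4 groups did not overlap, and the order of their means was C57BL/6J muscle (9.06 ± 0.19, SD, n = 2), the tsA58 line (8.32 ± 0.39, n = 3), tsA58 muscle (7.60 ± 0.17, n = 3) and the C57BL/6J line (6.49 ± 0.58, n = 3). Pairs of groups of unlike strain and kind were not compared. Relative to the C57BL/6J line, the tsA58 line was higher by 1.83 ± 0.29 (adjusted p = 0.00168). The C57BL/6J line fell by 2.58 ± 0.33 relative to its muscle (adjusted p = 0.000119), while the tsA58 line was 0.72 above its muscle (95% interval 0.07 to 1.36, adjusted p = 0.0687). The line-muscle difference was larger by 3.29 ± 0.44 in the tsA58 strain (adjusted p = 0.000819). Between the muscles, Jag1 fell by 1.46 ± 0.33 in tsA58 (adjusted p = 0.00984). That last call was lost without C57BL/6J muscle replicate 1 (-1.60, adjusted p = 0.0510) or 2 (-1.32, adjusted p = 0.0844), and its sign turned to 0.67 with arrays centred on hybridisation controls.

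The Jag1 probe set 1421106_at gave 6.09, 5.74 and 5.50 in the tsA58 line, and 5.34, 3.76 and 3.93 in tsA58 muscle. It gave 3.65, 4.13 and 3.51 in the C57BL/6J line and 3.65 and 4.25 in C57BL/6J muscle. The tsA58 line was above the array median on all 3 arrays, and the C57BL/6J arrays were below it on all 5. By this probe set too Jag1 was higher in the tsA58 line than in the C57BL/6J line, by 2.01 ± 0.38 (adjusted p = 0.00436), and it was higher than in tsA58 muscle by 1.44 ± 0.38 (adjusted p = 0.0110). The probe sets disagreed on the C57BL/6J line against muscle, where 1421106_at gave -0.18 (95% interval -1.13 to 0.76) from values below the array median. The difference between the strains' line-muscle differences was 1.62 (95% interval 0.35 to 2.90, adjusted p = 0.0636) for 1421106_at, and it was called without tsA58 line replicate 3 (1.76) or without tsA58 muscle replicate 1 (2.12). The remaining Jag1 probe set, 1421105_at, lay between 3.81 and 4.57, below the median on all arrays, and was not tested.

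Jag2, the second Jagged ligand, gave 6.78, 5.82 and 5.73 with 1426431_at in the tsA58 line and 4.96, 4.80 and 4.57 in tsA58 muscle. It read 4.97, 5.11 and 4.94 in the C57BL/6J line, against 3.54 and 4.06 in C57BL/6J muscle. Each line lay above its muscle without overlap, and the tsA58 groups above the C57BL/6J groups of the same kind. Both C57BL/6J muscle arrays and tsA58 muscle replicate 3 lay below the array median. Folds against C57BL/6J muscle thus start from values that cannot be told from background and may understate the change, which was not tested. Jag2 rose in the tsA58 line by 1.34 ± 0.28 relative to muscle (adjusted p = 0.00263) and in the C57BL/6J line by 1.21 ± 0.31 (adjusted p = 0.00828). The 2 line-muscle differences were 0.13 apart (95% interval -0.78 to 1.04, adjusted p = 0.854). Between the lines it was higher in tsA58 by 1.10 ± 0.28 (adjusted p = 0.0160). The muscles differed by 0.98 ± 0.31 (adjusted p = 0.0425), short of 2-fold.

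Several of these Jag2 calls leaned on single arrays. Without C57BL/6J muscle replicate 1 the C57BL/6J line-muscle value was 0.95 with an adjusted p of 0.0917. Without tsA58 line replicate 1, the highest array, the difference between the lines was 0.77 (adjusted p = 0.0439), under 2-fold, and that from tsA58 muscle was 1.00, just short of it. The call between the lines was also lost without C57BL/6J line replicate 1 (adjusted p = 0.0594) and without replicate 3 of that line (adjusted p = 0.0504). The other Jag2 probe set, 1426430_at, gave 7.61, 7.14 and 6.31 in the tsA58 line and 6.02, 5.98 and 5.94 in tsA58 muscle. All 3 line arrays were above the muscle, and the rise of 1.04 ± 0.27 was called (adjusted p = 0.0100). Without tsA58 line replicate 1 it was 0.75 and without replicate 2 of that line 0.98, both short of 2-fold. Between the lines this probe set differed by 0.90 ± 0.27 (adjusted p = 0.0374), short of 2-fold, and without tsA58 line replicate 3 it was called (1.25). The difference between the strains' line-muscle differences was 0.93 (adjusted p = 0.125), or 1.29 and called without that array. C57BL/6J line arrays read 6.12, 6.14 and 6.10, against 5.90 and 6.12 in muscle, a difference of 0.11 (95% interval -0.57 to 0.79).

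Dll1, a Delta ligand, varied little. Its 1 probe set, 1419204_at, gave 4.90, 5.27 and 5.16 in the tsA58 line, against 5.77, 5.16 and 5.24 in tsA58 muscle. It gave 5.08, 5.16 and 5.16 in the C57BL/6J line, against 5.48 and 5.55 in C57BL/6J muscle. The tsA58 groups overlapped, while the C57BL/6J line lay below its muscle, by a value of -0.38 (95% interval -0.87 to 0.10, adjusted p = 0.175) that missed the test. The 4 intervals of Dll1 between groups run from -0.87 to 0.41 and leave out a 2-fold change in either direction.

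**Figure D3:**
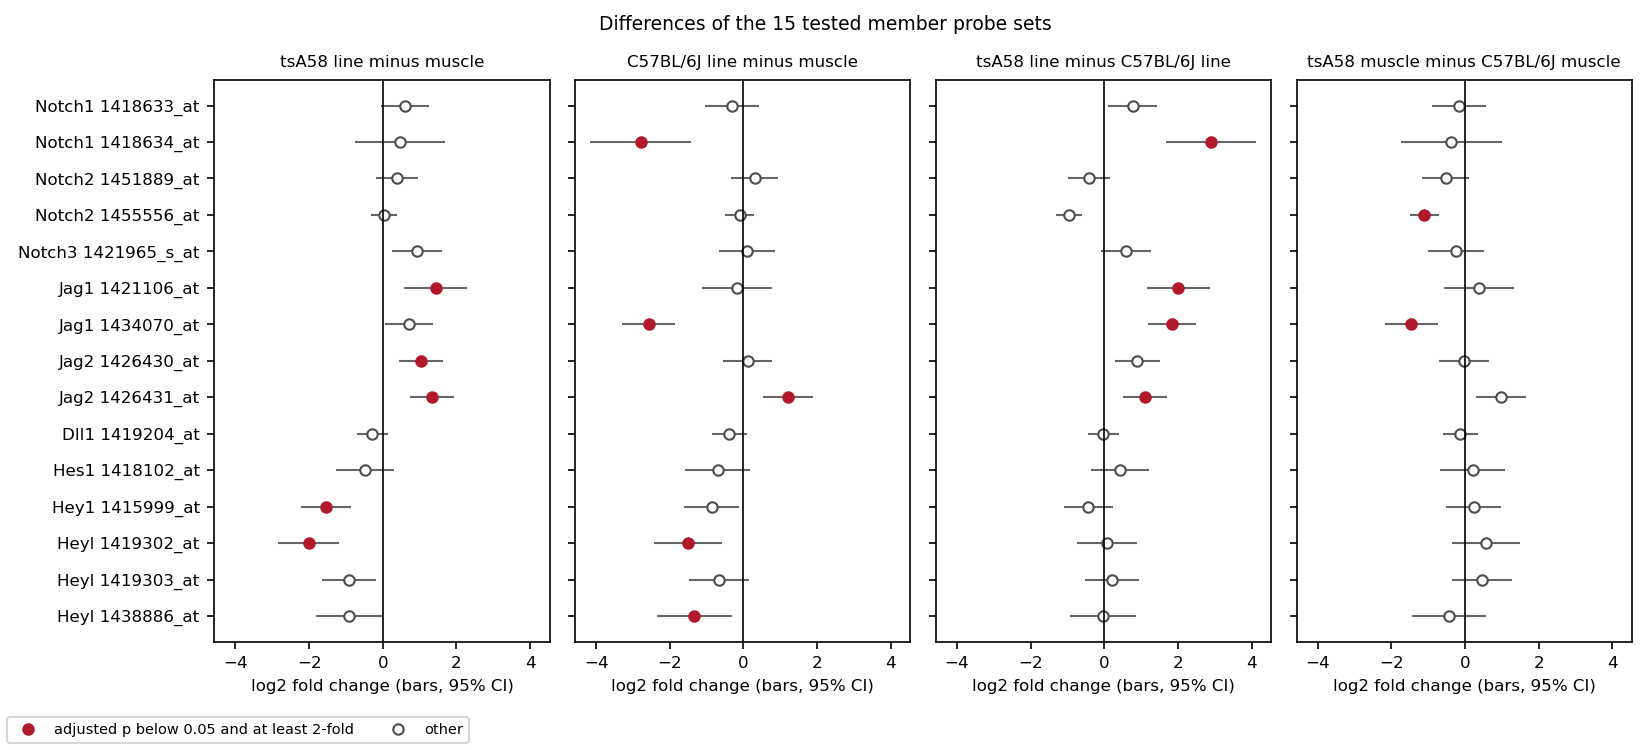
Log2 fold changes of the 15 tested member probe sets with their 95% intervals (bars) in 4 comparisons. Filled points passed an adjusted p below 0.05 and 2-fold. Heyl and Hey1 points lie left of 0 in both line-muscle panels, and the called points between the lines (Notch1, Jag1 with 2 probe sets, Jag2) all lie right of 0.

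Among the targets, Hes1, the most widely used Hes repressor, was called in 0 comparisons. With 1418102_at it gave 6.56, 5.91 and 7.02 in the tsA58 line and 6.83, 7.61 and 6.49 in tsA58 muscle. It gave 5.88, 5.75 and 6.56 in the C57BL/6J line and 6.56 and 6.97 in C57BL/6J muscle. The tsA58 groups overlapped, and the C57BL/6J line lay below its muscle by a margin that rounding hides. The line-muscle values were -0.48 (95% interval -1.27 to 0.31) in tsA58 and -0.70 (95% interval -1.58 to 0.18) in C57BL/6J. These intervals allow a change of more than 2-fold downwards.

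Hey1, a Hes-related repressor of arterial endothelium and other tissues, gave 5.17, 4.97 and 5.71 with 1415999_at in the tsA58 line, against 7.55, 6.34 and 6.57 in tsA58 muscle. The C57BL/6J line gave 5.75, 5.56 and 5.84, against 6.59 and 6.58 in C57BL/6J muscle. Every line array lay below every muscle array. Hey1 fell by 1.54 ± 0.30 in the tsA58 line (adjusted p = 0.00198). For the C57BL/6J line the value was -0.87 ± 0.34 (adjusted p = 0.0564), not called, and it turned to 0.37 with arrays centred on hybridisation controls. The 2 differences were -0.67 apart (95% interval -1.67 to 0.33, adjusted p = 0.314), so Hey1 was not shown to fall more in 1 strain than in the other.

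Heyl, the Hey family member known from vascular smooth muscle, had 3 tested probe sets. With 1419302_at the tsA58 line gave 4.19, 3.78 and 4.42, against 7.05, 6.15 and 5.23 in tsA58 muscle. The C57BL/6J line gave 4.15, 3.98 and 4.05, against 5.40 and 5.75 in C57BL/6J muscle. All 6 line arrays lay below the array median and all 5 muscle arrays above it. Heyl by this probe set fell by 2.01 ± 0.37 in the tsA58 line (adjusted p = 0.00141) and by 1.52 ± 0.42 in the C57BL/6J line (adjusted p = 0.0125). Both folds end below the median and may understate the change, which was not tested. The C57BL/6J call was lost without C57BL/6J muscle replicate 2 (-1.34, adjusted p = 0.0917). Between the lines the value was 0.07 (95% interval -0.75 to 0.90).

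The other Heyl probe sets ran the same way on the deposited scale. With 1438886_at the tsA58 line gave 4.71, 4.64 and 5.14, against 6.86, 5.46 and 4.93 in tsA58 muscle. With the same probe set the C57BL/6J line gave 5.09, 4.97 and 4.53, against 6.03 and 6.36 in C57BL/6J muscle. The tsA58 groups overlapped (-0.92, adjusted p = 0.0894), and leaving out tsA58 muscle replicate 1 gave -0.36 while leaving out replicate 3 gave -1.33, which was called. By the same probe set the C57BL/6J line fell by 1.33 ± 0.46 (adjusted p = 0.0343). That call was lost when any 1 of the 5 C57BL/6J arrays was left out (adjusted p between 0.0537 and 0.174), and with no filter on low values (adjusted p = 0.0511). With 1419303_at the line-muscle value was -0.92 ± 0.33 in tsA58 (adjusted p = 0.0413) and -0.66 ± 0.37 in C57BL/6J (adjusted p = 0.164), neither called. Without tsA58 muscle replicate 1 the tsA58 value was -0.50, and without replicate 2 or 3 it reached the call (-1.11 or -1.14). The C57BL/6J value turned to 0.57 with centring on hybridisation controls.

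Mean levels of the markers of each cell type listed here were lower in both lines than in their muscle, as were Heyl and Hey1; only the mesothelial mean was higher in the C57BL/6J line. The mean level of 10 endothelial markers was 3.96 ± 0.07 (SD, n = 3) in the tsA58 line and 6.41 ± 0.42 (n = 3) in tsA58 muscle. It was 4.14 ± 0.10 (n = 3) in the C57BL/6J line and 5.36 ± 0.02 (n = 2) in C57BL/6J muscle. Of these 10, 9 were called lower in the tsA58 line, with 6 in the C57BL/6J line. Over all tested probe sets 15.9% and 16.3% were called lower in these lines. Of the 10, 2 or 3 were above the median on the line arrays, against 8 to 10 on tsA58 muscle arrays and 7 on C57BL/6J muscle arrays. The mean of 6 mural markers was 5.35 ± 0.30 in the tsA58 line and 9.28 ± 0.15 in tsA58 muscle, and 5 of the 6 were called lower. It was 4.85 ± 0.14 in the C57BL/6J line and 8.58 ± 0.04 in C57BL/6J muscle, where 4 of 6 were called lower. Of 8 smooth muscle markers, 8 were called lower in the tsA58 line, with 6 in the C57BL/6J line. Other lists had lower medians than the endothelial list. The median log2 change over the tested markers was -5.09 in the tsA58 line, with -4.21 in the C57BL/6J line, for gastric epithelium, and -4.37 and -2.81 for macrophages. It was -6.25 and -5.76 for enteric neurons, and -3.08 and -2.39 for ICC, in the same order, against -2.72 and -1.22 for endothelium. Mural medians were -3.92 and -3.86, and smooth muscle medians -7.73 and -3.88. Of 5 enteric glia markers, 4 were called lower in each line. The part of any of these cell types in the values of Heyl and Hey1 was not tested.

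Within tsA58 muscle, replicate 1 was the highest of the 3 arrays for Heyl (7.05), Hey1 (7.55), Notch1 (7.87), Notch3 (6.00), Notch4 (5.55) and Jag1 by 1421106_at (5.34), and for the mean of the endothelial markers, which was 6.77 there, 6.51 on replicate 2 and 5.96 on replicate 3. Enteric glia (7.93) and enteric neuron (10.4) means were also highest on replicate 1. The mural mean was not, at 9.26, 9.15 and 9.44 on replicates 1, 2 and 3, and neither was the smooth muscle mean, at 13.1, 12.9 and 13.2. Jag1 by 1434070_at (7.76), Jag2 by both probe sets (6.02 and 4.96) and Dll1 (5.77) were also highest on replicate 1. Hes1 was highest on replicate 2 (7.61) and Notch2 by 1455556_at on replicate 3 (8.72). The hybridisation controls of these arrays averaged 7.52, 9.04 and 9.66 on replicates 1, 2 and 3. Their part, and that of cell content, in the values of replicate 1 was not tested. Between the muscles, 5 of the 10 endothelial markers were called higher in tsA58 than in C57BL/6J and 0 lower, where 9.82% and 6.04% of all tested probe sets were. Heyl by 1419302_at differed between the muscles by 0.57 (adjusted p = 0.361) and Hey1 by 0.24 (95% interval -0.51 to 0.98), neither called.

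**Figure D4:**
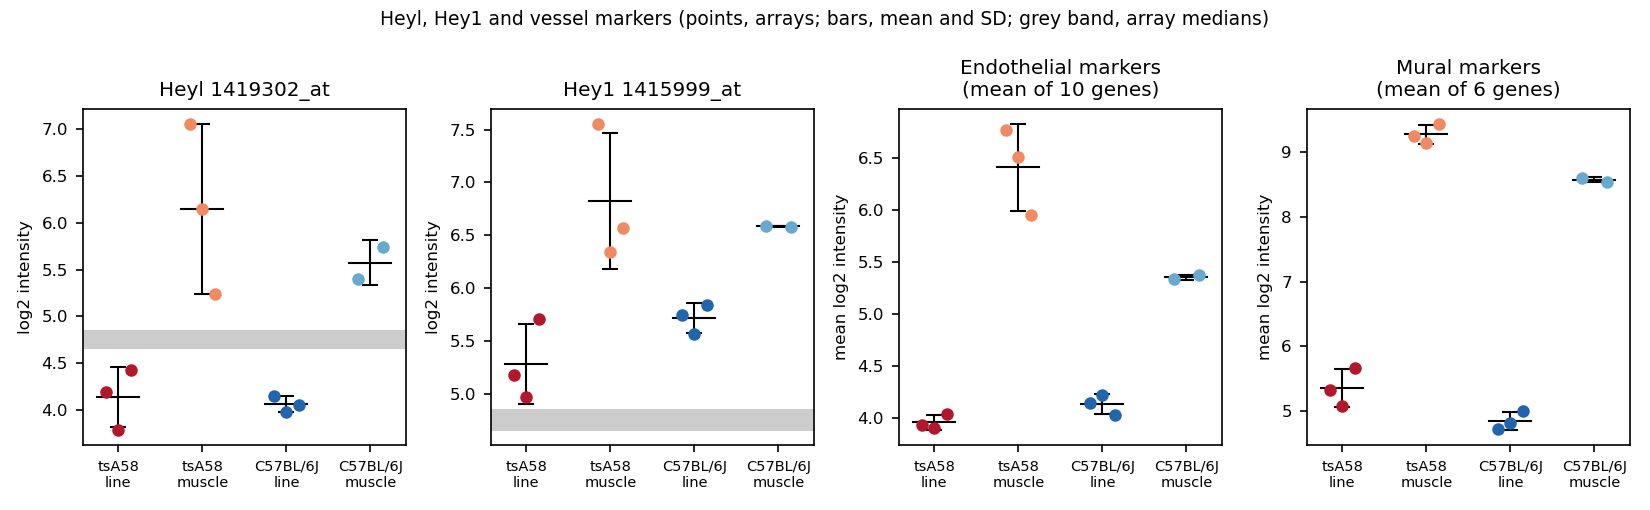
Log2 intensity of Heyl (1419302_at) and Hey1 (1415999_at) and the mean log2 intensity of 10 endothelial and 6 mural marker genes on each array (points), with group mean and SD (bars). The grey band spans the array medians. All 4 measures are lower on every line array than on every muscle array, and tsA58 muscle replicate 1 has the highest Heyl, Hey1 and endothelial values.

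Over the 15 tested probe sets, the median log2 change of the line against muscle was 0.40 in tsA58, where that of all tested probe sets was 0.10. In C57BL/6J it was -0.38, with 0.15 over all. Between the lines it was 0.43, with -0.02 over all, and between the muscles -0.13, with 0.12 over all. The difference between the strains' line-muscle differences was called for 2 member probe sets, Notch1 1418634_at and Jag1 1434070_at, with values of 3.27 and 3.29, where 22.3% of all tested probe sets were called in either direction.

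Of 64 other genes of the pathway, 59 had a probe set and 55 were tested, each by the probe set that was brightest on average. In the tsA58 line against muscle 7 were called higher and 6 lower, where the shares over all tested probe sets were 14.6% and 15.9%. In the C57BL/6J line 12 were higher and 7 lower, where those shares were 17.8% and 16.3%. Of the ligand-like genes, Dner, a membrane protein of neurons, fell by 4.13 ± 0.34 in the tsA58 line (adjusted p = 4.87e-06) and by 4.20 ± 0.38 in the C57BL/6J line (adjusted p = 1.26e-05). Markers of enteric neurons fell with it, 8 of 8 in each line, and their part in the Dner value was not tested. Dlk1, a Delta-like protein without the receptor-binding domain of true ligands, fell by 4.04 ± 0.76 in the C57BL/6J line (adjusted p = 0.00136) and by 2.11 ± 0.68 in the tsA58 line (adjusted p = 0.0258), and with tsA58 line replicate 1 or 2 left out the second adjusted p was 0.0721 or 0.0634, past the threshold. Without tsA58 muscle replicate 1 the tsA58 value for Dlk1 was -1.07, still called.

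Of the other targets, 5 were called higher and 1 lower in each line, out of 10 tested, beside the shares over all probe sets just given. Hey2, the third Hey repressor, averaged 2.77 ± 0.18 in the tsA58 line against 5.69 ± 0.86 in tsA58 muscle, and fell by 2.92 ± 0.35 (adjusted p = 7.29e-05). Hey2 averaged 2.63 ± 0.09 in the C57BL/6J line, against 6.02 ± 0.26 in C57BL/6J muscle, and fell by 3.38 ± 0.39 (adjusted p = 5.78e-05). Myc, a growth regulator with many inputs besides Notch, rose by 3.20 ± 0.30 in the tsA58 line (adjusted p = 1.24e-05) and by 3.33 ± 0.33 in the C57BL/6J line (adjusted p = 2.35e-05). Cdkn1a, a cell cycle inhibitor, rose by 2.79 ± 0.20 in the tsA58 line (adjusted p = 1.82e-06) and by 1.85 ± 0.23 in the C57BL/6J line (adjusted p = 8.97e-05). The targets thus ran both ways, with Heyl and Hey2 down and Myc and Cdkn1a up in both lines. Gata3, a transcription factor, rose by 1.88 ± 0.27 in the tsA58 line (adjusted p = 0.000286), and Bhlhe40, a repressor related to Hes proteins, by 3.20 ± 0.35 in the C57BL/6J line (adjusted p = 3.96e-05). Neither rise was particular to that line. Gata3 averaged 4.84 ± 0.23 in the C57BL/6J line, against 3.54 ± 0.14 in C57BL/6J muscle. Bhlhe40 averaged 9.27 ± 0.69 in the tsA58 line, against 7.90 ± 0.36 in tsA58 muscle.

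Of 14 tested genes of the nuclear complex and its co-repressors, 0 were higher and 1 lower in the tsA58 line, and 3 higher and 1 lower in the C57BL/6J line. Over all tested probe sets 14.6% were higher and 15.9% lower in the tsA58 line, and 17.8% and 16.3% in the C57BL/6J line. Rbpj, the DNA-binding partner of the Notch intracellular domain, rose by 1.77 ± 0.25 in the C57BL/6J line (adjusted p = 0.000235). Of the 8 tested receptor cleavage genes, Aph1a, a gamma-secretase subunit, fell by 1.66 ± 0.24 in the C57BL/6J line (adjusted p = 0.000239). Of the ubiquitin regulators, Dtx3l rose by 1.91 ± 0.44 (adjusted p = 0.00526) and Dtx1 fell by 1.30 ± 0.24 (adjusted p = 0.00143) in the tsA58 line. Both belong to the Deltex family of ubiquitin ligases.

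Between the lines, 5 of the 55 were higher in the tsA58 line and 2 lower, where 8.70% and 5.52% of all probe sets were. Dtx3l averaged 9.38 ± 0.82 in the tsA58 line, against 6.42 ± 0.81 in the C57BL/6J line, higher by 2.96 ± 0.44 (adjusted p = 0.00117). Gata3 was higher by 1.21 ± 0.27 (adjusted p = 0.0103), Neurl1a, a ubiquitin ligase that acts on ligands, by 1.14 ± 0.29 (adjusted p = 0.0188) and Lfng, a glycosyltransferase that modifies Notch receptors, by 1.38 ± 0.43 (adjusted p = 0.0396). The Lfng call was lost without any 1 of 7 arrays (adjusted p up to 0.141), and Gata3 was at 0.86 without tsA58 line replicate 3. With the 3′ to 5′ actin ratio of each array as a covariate, Lfng was at 0.30 and Gata3 at 0.55 between the lines, neither called. The Neurl1a adjusted p was 0.0682, 0.0630 or 0.0643 with C57BL/6J replicate 1, tsA58 replicate 1 or tsA58 replicate 2 of the lines left out, so its call was lost there. Tle1, a Groucho co-repressor, fell by 2.08 ± 0.30 (adjusted p = 0.00098) and Bhlhe40 by 1.58 ± 0.31 (adjusted p = 0.00501). The other tested Tle1 probe set was at -0.40, not called. With arrays centred on hybridisation controls Tle1 was at -0.59 and Bhlhe40 at -0.086, neither called.

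Between the muscles, 2 of the 55 were higher in tsA58 and 1 lower, where 9.82% and 6.04% of all were, and each of these calls depended on single arrays. Ncstn, a gamma-secretase subunit, was higher by 1.42 ± 0.40 (adjusted p = 0.0276), but without C57BL/6J muscle replicate 1 or 2 the adjusted p was 0.136 or 0.127, and without tsA58 muscle replicate 1 the value was 0.94. Dtx3, a Deltex ligase, was higher by 1.14 ± 0.32 (adjusted p = 0.0268), and without C57BL/6J muscle replicate 1, C57BL/6J muscle replicate 2 or tsA58 muscle replicate 1 its adjusted p was 0.206, 0.0647 or 0.0548. Dlk1 fell by 2.30 ± 0.76 (adjusted p = 0.0496), a call that was lost in 15 of 19 alternative settings.

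The line-muscle difference itself differed between the strains for 8 of the 55, 3 positive and 5 negative, where 22.3% of all probe sets were called. Dtx3l was larger in tsA58 by 3.05 ± 0.67 (adjusted p = 0.00849), Aph1a by 1.93 ± 0.32 (adjusted p = 0.00219) and Adam10, the main Notch sheddase, by 1.14 ± 0.35 (adjusted p = 0.0379). The value of Hes6, which in mouse acts against Hes1, was -1.69 ± 0.33 (adjusted p = 0.00524), that of Bhlhe40 -1.83 ± 0.46 (adjusted p = 0.0169) and that of Dtx3 -1.48 ± 0.43 (adjusted p = 0.0304). Tle1 gave -2.74 ± 0.46 (adjusted p = 0.00238), but another Tle1 probe set gave 0.44. Both other Adam10 probe sets missed the call, at -0.30 and 0.74. The calls of Adam10, Bhlhe40 and Dtx3 were each lost without single arrays (adjusted p up to 0.116, 0.0690 and 0.134).

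The probe sets whose profile over the 11 arrays was most like a member's were found by the root mean square difference after each was centred on its own mean. The nearest to Notch1 1418634_at was Tyro3, a receptor tyrosine kinase, at 0.376 log2 units, followed by Zdhhc2 (0.471) and Casp8ap2 (0.497). Nearest to Jag1 1434070_at were Panx1 (0.277), Purb (0.298) and Ppp2r5e (0.326). Nearest to Notch2 1455556_at were Srp19 (0.146), Acaa1a (0.185) and Nectin3 (0.199). For Jag2 1426430_at they were Tle6 (0.130), Spn (0.142) and Hnrnpab (0.153). For Hey1 they were Asic2 (0.155), Slc24a2 (0.181) and Crtac1 (0.183), and for Heyl 1438886_at Cdh4 (0.225), Kcnmb4 (0.253) and Casq1 (0.257). A member that varies more over the arrays gives larger distances, so these values are not comparable between members.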

How the data were processed

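Total RNA from 11 samples was hybridised to Affymetrix mouse genome arrays after 2 rounds of amplification from about 50 ng, the first primed with oligo(dT), per the labels' protocols. The authors deposited RMA values, which are log2 intensities, 1 for each probe set and array, per the submitters' processing notes. No RMA version was given in the sources used here. RMA equalises probe intensity distributions between arrays, so changes are relative to the bulk of transcripts, and the values carry no detection calls. Of 45101 probe sets, 64 are controls, 932 carry several gene symbols and 9160 none; only single symbols were named. The number of arrays limits the precision.

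The fit estimated 4 group means per probe set, with 7 residual degrees of freedom (lmFit and eBayes of limma 3.58.1, R 4.3.3). P-values were adjusted by Benjamini-Hochberg over the 26923 probe sets above the array median on at least 2 arrays. A call needs an adjusted p below 0.05 and at least 2-fold. The procedure was tested on simulated data. Alternatives were no filter, a stricter filter (1 log2 unit above the median on 3 arrays), quantile normalisation, centring on hybridisation controls, the 3′ to 5′ actin ratio as a covariate, a replicate block, only the groups compared, 1 probe set per gene, and leaving out each array. The same alternatives were applied to the named pathway genes after the data were seen.

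The members and lists were chosen with earlier results of these data known. All members are described. Of the other pathway genes, up to 4 called ones with the largest change per direction and comparison are named, by the gene's brightest probe set. Of these 32 results, 15 had another tested probe set, and in 12 all of those had the same sign. Similar profiles are named for members called in at least 1 comparison, 3 each. Promoter sequences were taken from a RefSeq table (GRCm38.p6). Python 3.11.15 with pandas 2.3.3, numpy 2.4.6 and matplotlib 3.10.9 produced the tables and plots.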

Additional observations from a re-analysis of the deposited data

Results flagged for a closer look

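For 2 of the 15 tested member probe sets the line-muscle difference itself differed between the strains by a test of that difference in limma. Over all tested probe sets 22.3% were called for this difference, so such calls were common. Both member calls were lost with arrays centred on hybridisation controls, and the Notch1 call was lost without C57BL/6J muscle replicate 2. For Jag1 (1434070_at) the tsA58 difference exceeded the C57BL/6J one by 3.29 (adjusted p = 0.000819): it was 0.72 in tsA58 and -2.58 in C57BL/6J. For Notch1 (1418634_at) the tsA58 difference exceeded the C57BL/6J one by 3.27 (adjusted p = 0.0169): it was 0.48 in tsA58 and -2.79 in C57BL/6J. The second Notch1 probe set gave 0.93 (adjusted p = 0.158) and the second tested Jag1 probe set 1.62 (adjusted p = 0.0636) for the same quantity. Strain, clone and culture conditions cannot be told apart here.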

How the results depend on the processing

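Of the 18 called member results, 4 kept direction and call under all 19 alternatives and 9 under all except centring on hybridisation controls. Of 1355 recomputed member values, 1228 kept direction and call, 29 lost the call, 29 gained it and 69 turned sign. Of the 32 named results of other pathway genes, 15 held under all alternatives, 22 held whichever array was left out, and 0 turned sign. Precision is limited by 2 or 3 arrays per group, by signals near the array median and by single arrays. On tsA58 line replicate 3, which stood apart, the log2 actin ratio was 0.053, and without it 5382 probe sets were called between the lines (3829 with it) and 8034 for the difference between strains (6008 with it). The hybridisation controls averaged 8.14 in the tsA58 line, 8.74 in tsA58 muscle, 9.63 in the C57BL/6J line and 10.9 in C57BL/6J muscle. Actin 3′ over 5′ signal, as a log2 ratio, averaged 0.47, 0.44, 1.02 and 0.93 in the same order. Unless given in the text, the cause of a change under an alternative was not tested.

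Centring on hybridisation controls adds 1 constant per array. It left 3 called member probe sets (of 5) in the tsA58 line against muscle and 1 (of 5) in the C57BL/6J line, and gave 12 (of 4) between the lines, 13 (of 2) between the muscles and 0 (of 2) for the difference between strains. Over all probe sets the calls higher and lower were 4248 and 1872 (3921 and 4274 as deposited) in the tsA58 line, and 10930 and 1241 (4793 and 4379) in the C57BL/6J line. They were 16156 and 180, 16336 in all (2343 and 1486), between the lines, 23718 and 46, 23764 in all (2645 and 1626), between the muscles, and 321 and 904, 1225 in all (2691 and 3317), for the difference between strains. Quantile normalisation gave 2054 and 2026 between the muscles.

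Values that turned sign under this centring were, in the tsA58 line against muscle, Dll1 0.32 and Hes1 0.12. In the C57BL/6J line they were Notch1 1418633_at 0.92, Notch2 1455556_at 1.13, Jag1 1421106_at 1.05, Dll1 0.85, Hes1 0.53, Hey1 0.37 and Heyl 1419303_at 0.57. Between the lines they were Notch2 1451889_at 1.07, Notch2 1455556_at 0.53, Dll1 1.47, Hey1 1.06 and Heyl 1438886_at 1.46. Between the muscles they were Notch1 1418633_at 1.97, Notch1 1418634_at 1.75, Notch2 1451889_at 1.61, Notch2 1455556_at 1.02, Notch3 1.87, Jag1 1434070_at 0.67, Jag2 1426430_at 2.09, Dll1 2.00 and Heyl 1438886_at 1.68. For the difference between strains they were Notch2 1451889_at -0.54, Notch2 1455556_at -0.50, Jag2 1426431_at -0.51, Dll1 -0.53, Hes1 -0.41 and Heyl 1438886_at -0.22. Of these, Notch2 1455556_at and Jag1 1434070_at between the muscles were calls on the deposited scale.

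With 1 probe set per gene, fewer probe sets were tested and the calls were 4214 in the tsA58 line, 4530 in the C57BL/6J line, 1880 between the lines, 1696 between the muscles and 2702 for the difference between strains. Member calls were then 2, 3 and 2 in the first 3 of these. The stricter filter left 3 member calls in the tsA58 line. With the actin ratio as a covariate 6484 probe sets were called between the lines and 0 members between the muscles. Under this covariate the calls of Jag1 1434070_at between the muscles (-1.41, adjusted p = 0.0573) and Jag2 1426431_at between the lines (1.17, adjusted p = 0.0659) were lost, and Notch2 1455556_at between the muscles (-0.97) missed 2-fold. It turned Dll1 to 0.050, Hes1 to -0.31 and Heyl 1419302_at to -0.29 between the lines, and Notch1 1418634_at to 0.77, Jag2 1426430_at to 0.47, Hes1 to -0.46 and Hey1 to -0.14 between the muscles. Under quantile normalisation Jag2 1426431_at gained a call between the muscles (1.05, adjusted p = 0.0246), Hes1 was -0.012 between the muscles, and Notch2 1451889_at was -0.0048 and Jag2 1426431_at -0.030 for the difference between strains.

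Replicate numbers did not pair the arrays: deviations of the 15 same-numbered pairs correlated between -0.16 and 0.22. With the replicate block 8967 probe sets were called in the C57BL/6J line, 8142 in the tsA58 line, 3716 between the lines, 3816 between the muscles and 5113 for the difference between strains. Under the block Heyl 1438886_at lost its call in the C57BL/6J line (-1.19, adjusted p = 0.0687), Jag2 1426431_at gained one between the muscles (1.08, adjusted p = 0.0459), and Jag2 1426430_at turned to 0.097 there.

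Leaving out single arrays gave 4 to 7 member calls in the tsA58 line, 3 to 5 in the C57BL/6J line, 3 to 5 between the lines, 1 to 2 between the muscles and 1 to 4 for the difference between strains. Over all probe sets it gave 2313 to 4664 calls between the muscles and 3579 to 8034 for the difference between strains, the lowest without C57BL/6J muscle replicate 1. Uncalled values that turned sign ran, in the tsA58 line, from -0.015 to 0.11 for Notch2 1455556_at. In the C57BL/6J line they ran from -0.16 to 0.77 for Notch2 1451889_at, -0.21 to 0.39 for Notch3, -0.00078 to 0.22 for Jag2 1426430_at, -0.81 to 0.18 for Notch1 1418633_at and -0.48 to 0.11 for Jag1 1421106_at. Between the lines the ranges were -0.20 to 0.082 for Heyl 1438886_at, -0.10 to 0.085 for Dll1 and -0.069 to 0.25 for Heyl 1419302_at. Between the muscles they were -0.65 to 0.34 for Notch1 1418633_at, -0.61 to 0.049 for Notch3, -0.14 to 0.079 for Jag2 1426430_at, -0.11 to 0.69 for Jag1 1421106_at, -0.13 to 0.48 for Hey1 and -0.11 to 0.45 for Hes1. For the difference between strains they were -0.37 to 0.56 for Notch2 1451889_at, -0.21 to 0.39 for Jag2 1426431_at, -0.038 to 0.54 for Hes1, -0.48 to 0.17 for Heyl 1419303_at and -0.011 to 0.30 for Dll1.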
